A study of Homo sapiens with 7 samples.

Results

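The 8 genes that encode the subunits of the CCT chaperonin, TCP1, CCT2, CCT3, CCT4, CCT5, CCT6A, CCT7 and CCT8, were examined in HCT116 cells, an established human colorectal carcinoma line. They were chosen by symbol from the 20072 gene symbols of the deposited RPKM table, and all 8 were present and above 0 in every library. The rule used the symbols and no measured value. Log-phase cells grown without serum, in medium with EGF, insulin and transferrin, were divided between 3 assays. All groups share these growth conditions, and a drug treatment, with cycloheximide, is described only for the cells of the polysome assay. Transcription rate (TR) was measured by GRO-seq, a nuclear run-on with labelled nucleotides, in 2 libraries. Steady-state mRNA abundance (RA) was measured by RNA-seq in 3 libraries, and translation activity (TA) by sequencing of polysome-bound mRNA, isolated after a short treatment with cycloheximide to hold ribosomes on their messages, in 2 libraries. RPKM is the number of reads on a gene divided by its exon length in kilobases and by the size of the library.

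CCT, also called TRiC, is the chaperonin of the eukaryotic cytosol. It is a barrel of stacked double rings, and each ring holds 1 copy of each of the 8 subunits, which descend from a common ancestor and take fixed places around the ring. A newly made protein is closed in its chamber under a lid formed by the subunits themselves and is released after cycles of ATP hydrolysis. Actin, tubulin and many proteins with WD40 propellers need it to fold, prefoldin hands substrates to it, and phosducin-like proteins work with it as cochaperones. Since the assembled particle holds the subunits in equal numbers, the question was how alike their genes were in transcription, mRNA abundance and polysome association.

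The genes lie on 7 chromosomes and each is protein-coding. In GRCh37, with GENCODE release 44 as lifted to that build, TCP1 is at chr6:160199530-160210735 on the minus strand, CCT2 at chr12:69979206-69995350 on the plus strand, CCT3 at chr1:156278759-156337664 on the minus strand and CCT4 at chr2:62095220-62115806 on the minus strand. CCT5 is at chr5:10250041-10266501 on the plus strand, CCT6A at chr7:56119378-56131682 on the plus strand, CCT7 at chr2:73460548-73480149 on the plus strand and CCT8 at chr21:30428126-30446118 on the minus strand. Their coding parts were of nearly the same length, from 1596 bases in CCT6A to 1671 in TCP1, whereas the median over 13089 tested genes with a canonical coding transcript was 1374 bases with quartiles of 864 and 2190. They differed more in their untranslated parts, which made up 11.2% of the canonical transcript in CCT8, 11.6% in CCT7, 16.1% in CCT2, 17.1% in CCT3, 29.0% in TCP1, 31.8% in CCT4, 38.2% in CCT6A and 50.6% in CCT5. The median of the tested genes was 49.4%, so that CCT5 alone among the 8 was above it.

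The DNA before the start sites is shown because transcription, which TR measures, begins at these sites. TR itself was counted over exons, as RA and TA were. Windows of 250 bases before the start were taken from RefSeq on GRCh38.p14, and a window was used only where its start site was the 5′ end of the gene, which held for 6 members. The window listed for CCT5 began inside the gene and was left out, and CCT6A had no entry. Of the 6, TCP1 had the highest mean TR and CCT7 the lowest, and CCT3 is shown for its pair of CCAAT boxes. GENCODE also lists longer CCT3 transcripts that begin upstream of this start. The stretches below are the longest parts of these windows free of any GENCODE exon. Capitals mark a CCAAT box (CCAAT, or ATTGG on the other strand) or a GC box (GGGCGG, or CCGCCC on the other strand).
TCP1, chr6:159789704-159789811, minus strand: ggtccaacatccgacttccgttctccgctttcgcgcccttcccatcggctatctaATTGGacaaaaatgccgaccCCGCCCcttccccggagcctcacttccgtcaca
CCT7, chr2:73234058-73234235, plus strand: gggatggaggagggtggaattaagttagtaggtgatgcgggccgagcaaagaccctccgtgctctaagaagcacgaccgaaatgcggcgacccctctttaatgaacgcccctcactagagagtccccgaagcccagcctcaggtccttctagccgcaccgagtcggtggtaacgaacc
CCT3, chr1:156338312-156338502, minus strand: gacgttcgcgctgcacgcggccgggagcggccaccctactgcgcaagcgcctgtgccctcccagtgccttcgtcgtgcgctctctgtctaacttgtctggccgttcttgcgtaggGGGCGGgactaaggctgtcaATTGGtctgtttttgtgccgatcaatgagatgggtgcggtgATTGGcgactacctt

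The CCT7 stretch held neither box, the TCP1 stretch 1 of each and the CCT3 stretch 1 GC box and 2 CCAAT boxes. Over the full windows, read on both strands, the GC box was found in 4 of 6 members and in 41.7% of 24882 windows chosen by the same rule, and the CCAAT box in 4 of 6 and in 33.4%. The core of the heat shock element, GAANNTTC or TTCNNGAA, was found in TCP1 alone among the 6 and in 11.8% of all windows. This match lies outside the exon-free stretch shown for TCP1, and exons of MRPL18, on the other strand, overlap that window. Exons of TSACC and COMMD1 overlap the windows of CCT3 and CCT4. An ETS core, CCGGAAG, was found in CCT2 alone and in 8.8% of all windows. TATAAA, held by 11.4% of all windows, and the NRF1 palindrome, held by 1.1%, were found in none of the 6. The windows of the members were 56.8% to 64% G or C, against a median of 57.6%, and held 18 to 27 CG pairs against a median of 10. The matches in capitals share no bases with each other, and a match describes letters only.

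The library sizes behind the RPKM values were worked out from them, as 3391897 and 5629982 reads for TR, 20299018 to 22532134 for RA, and 30805391 and 22421062 for TA. Reads on the listed genes made up 99.74% to 99.8% of each size. TR thus had the fewest counted reads, while the depth of sequencing itself is not known from these sizes. A gene with 2000 bases of exon and 3 reads would have 0.442 and 0.266 RPKM in the TR libraries and at most 0.0739 in the others, and every CCT value was far above this. Of the epithelial markers, 5 of 6 were high, with summed values of 1105 to 1120 RPKM in TR, 1899 to 2550 in RA and 5326 to 5462 in TA, while VIL1 was near 0 in RA at a mean of 0.0118. The summed level of 6 markers of other cell types was 22.1 to 75.7, mostly of CD68 and COL1A1, with COL1A2 at 0 in every RA library. In bulk cells, more RNA of a gene per cell and a larger share of the cells expressing it cannot be told apart. Each parameter is also 1 assay, so that a ratio between parameters and a difference between assays cannot be told apart.

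All 8 subunit genes were highly expressed. They stood between the 93.0 and 97.5 percentile of the 14305 tested genes in TR, between 95.8 and 99.1 in RA and between 96.8 and 99.4 in TA. A gene was tested if its mean reached 1 RPKM for TR, RA or TA. Together the 8 genes had 603 and 555 RPKM in the TR libraries, 1800, 1458 and 1422 in RA, and 2613 and 2429 in TA.

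TCP1, the founding subunit of the family, had 79.8 and 70.7 RPKM in TR, 165, 104 and 126 in RA, and 144 and 154 in TA. The RA and TA libraries of TCP1 overlapped, which was the case for no other subunit. CCT2 had 75.3 and 62.0 in TR, 242, 155 and 167 in RA, and 299 and 287 in TA. CCT3 had 72.3 and 56.3 in TR, 361, 305 and 274 in RA, and 538 and 483 in TA. RA replicate 1 was the highest of its group in every member but CCT4. In CCT2 and CCT3 every TA library was above every RA library, and every RA library above every TR library. CCT4 had 66.4 and 64.9 in TR, 234, 241 and 217 in RA, and 335 and 290 in TA, in the same order with close replicates. CCT5 had 86.2 and 95.9 in TR, 121, 94.0 and 89.5 in RA, and 221 and 192 in TA. Here the TR and RA libraries overlapped, as in no other member, and TA stood alone above both.

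CCT6A had 96.1 and 105 RPKM in TR, 186, 171 and 163 in RA, and 286 and 247 in TA. CCT7 had 70.1 and 43.2 in TR, 323, 235 and 240 in RA, and 513 and 515 in TA. CCT8 had 56.4 and 57.9 in TR, 167, 153 and 146 in RA, and 277 and 261 in TA. The 3 parameters did not overlap in any of these genes. The TR replicates of CCT7 lay farther apart than those of any other member, at a mean of 56.6 ± 19.0 (SD, n = 2), and those of CCT4 and CCT8 were the closest, at 65.6 ± 1.07 and 57.2 ± 1.07 (SD, n = 2).

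**Figure D1:**
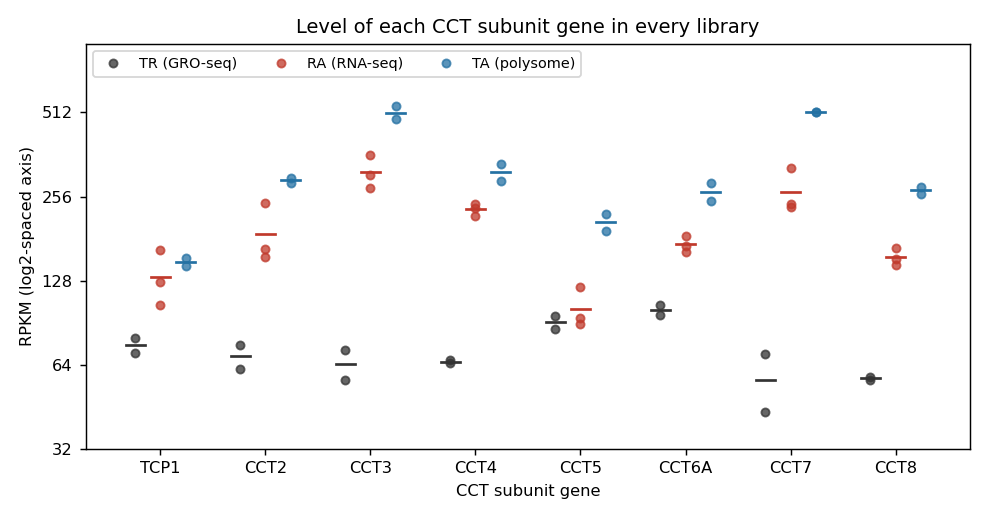
RPKM of each CCT subunit gene on a log2-spaced axis in the TR, RA and TA libraries; each point is 1 library and each bar the mean of the group. TR lies between 43.2 and 105 for all 8 genes, while RA and TA reach 361 and 538, and the RA points of CCT5 overlap its TR points.

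The order of the genes changed from TR to RA. By mean TR the order was CCT6A at 100.3 ± 6.0, CCT5 at 91.1 ± 6.85, TCP1 at 75.3 ± 6.41, CCT2 at 68.6 ± 9.45, CCT4, CCT3 at 64.3 ± 11.3, CCT8 and CCT7 (SD, n = 2). Only CCT6A and CCT5, and CCT5 and TCP1, had library ranges that did not overlap among neighbours in this order. By mean RA the order was CCT3 at 314 ± 44.2, CCT7 at 266 ± 49.8, CCT4 at 231 ± 12.0, CCT2 at 188 ± 47.3, CCT6A at 173 ± 11.6, CCT8 at 155 ± 10.6, TCP1 at 132 ± 30.8 and CCT5 at 102 ± 17.2 (SD, n = 3). Every pair of neighbours in RA overlapped, so that the order is known only between genes farther apart. By mean TA it was CCT7 at 514 ± 1.54, CCT3 at 510 ± 38.7, CCT4 at 313 ± 31.9, CCT2 at 293 ± 8.68, CCT8 at 269 ± 11.5, CCT6A at 266 ± 27.8, CCT5 at 207 ± 20.5 and TCP1 at 149 ± 6.93 (SD, n = 2). Here CCT3 and CCT4, CCT2 and CCT8, CCT6A and CCT5, and CCT5 and TCP1 were separate, and the other neighbours overlapped.

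With the deposited lengths CCT5, second in TR, was thus last in RA, and CCT7, last in TR, was second in RA and first in TA. Over the 8 genes, log2 mean TR and log2 mean RA had a Pearson r of -0.569 and a Spearman rho of -0.595, and TR and TA an r of -0.541 and a rho of -0.762. RA and TA ran together, with an r of 0.891 and a rho of 0.929. These values describe 8 genes that share the same libraries and exon lengths, and carry no test. Per canonical transcript length and without CCT6A, CCT5 was first in TR at 111 ± 8.39 (SD, n = 2). It was then last of 7 in RA at 124 ± 21.0 (SD, n = 3) and at rank 6 in TA at 253 ± 25.1 (SD, n = 2). CCT5 moved in RA and TA with coding length, since its RPKM was divided by 4032 bases while its coding part has 1626. Per coding length and without CCT6A, CCT5 was first in TR at 226 ± 17.0 (SD, n = 2), at rank 5 of 7 in RA at 252 ± 42.6 (SD, n = 3) and at rank 3 in TA at 513 ± 50.8 (SD, n = 2), and TCP1 was last in RA and TA. CCT7 was still last of the 7 in TR, at rank 3 in RA and at rank 2 in TA. The r of TR and RA over these 7 genes was -0.712 with the deposited lengths, -0.604 per canonical transcript length and -0.258 per coding length, and that of RA and TA 0.891, 0.903 and 0.869.

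The subunit genes were nearest to each other in TR as deposited. The SD of log2 RPKM over the 8 genes was 0.24 for TR replicate 1 and 0.42 for TR replicate 2, then 0.53, 0.59 and 0.53 for RA, then 0.62 and 0.60 for TA. The highest gene was 1.70 and 2.42 times the lowest in TR, 2.98 to 3.24 times in RA, and 3.74 and 3.35 times in TA. Taken over the mean of each gene, TR had an SD of 0.30, RA of 0.54 and TA of 0.60. The highest gene was then 1.77, 3.09 and 3.45 times the lowest. The step from TR to RA held when reads were divided by canonical transcript length, and it turned when coding length was used. Without CCT6A, whose length could not be fixed, the SD of the other 7 was 0.24, 0.58 and 0.65 with the deposited lengths, 0.28, 0.57 and 0.68 per canonical transcript length, and 0.54, 0.42 and 0.57 per coding length. Reads of all 3 assays were counted over exons, while coding length leaves out the untranslated parts of these. The length that fits each assay best was not tested.

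With the deposited lengths, the CCT genes were closer to each other than those of other complexes that were set beside them. For the 6 prefoldin subunits, which form the complex that hands actin and tubulin to CCT, the SD of the means was 1.25 in TR, 1.34 in RA and 1.53 in TA. For the 14 genes of the 20S proteasome core, a barrel of stacked rings that degrades proteins, it was 0.74, 0.996 and 1.21. The highest prefoldin gene was 9.45, 8.44 and 13.0 times the lowest, and the highest proteasome gene 5.65, 10.5 and 17.5 times. Among 13244 tested genes above 0 in every library, the SD was 1.53 to 1.54 in TR, 2.53 to 2.55 in RA and 2.96 in both TA libraries. These are descriptions with the deposited lengths, without a test of the difference between complexes. The spread of the prefoldin and proteasome genes per coding length was not worked out. Within the proteasome core the deposited lengths ran from 796 bases for PSMB3 to 4845 for PSMB2, whose coding parts have 618 and 606.

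**Figure D2:**
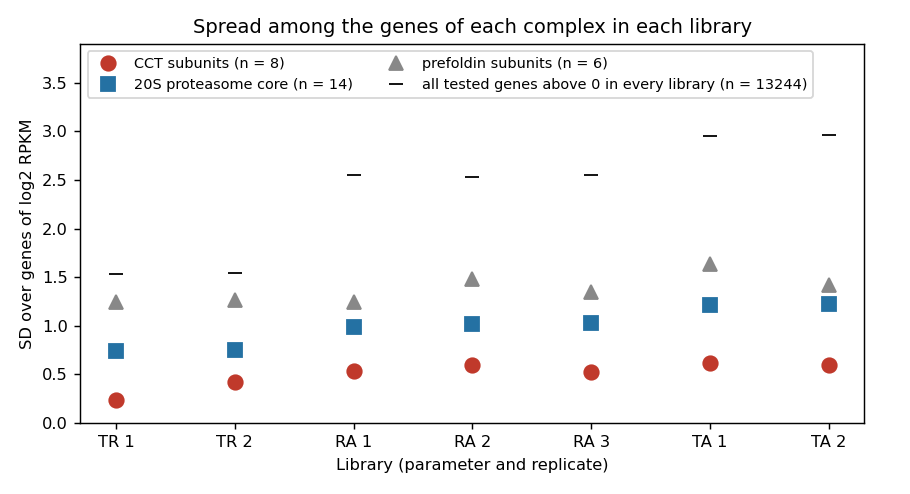
SD over genes of log2 RPKM in each of the 7 libraries for the 8 CCT subunits, the 14 genes of the 20S proteasome core, the 6 prefoldin subunits and the 13244 tested genes above 0 in every library. The CCT points lie lowest in every library, from 0.24 to 0.62.

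The comparison of RA with TR is the study's stability index, log2(RA/TR). The mRNAs of 7 of the 8 subunits were higher in RA than in TR and none was lower, in limma with Benjamini-Hochberg adjustment over all tested genes. Of all tested genes 19.2% were higher and 48.0% lower in this comparison, with a median log2 ratio of -0.58, against a median of 1.43 for the members. The paper reports that RA tends to be above TR in highly expressed genes and below it in lowly expressed ones. The members are highly expressed, and the tested genes were not matched to them by level, here or in the later comparisons. CCT3 had the largest log2 ratio at 2.29 (SE 0.23, limma adjusted p = 5.81e-05), a 4.88-fold ratio of means. CCT7 followed at 2.26 (SE 0.27, limma adjusted p = 0.000156), a 4.70-fold ratio. CCT4 stood at 1.81 (SE 0.19, limma adjusted p = 6.88e-05), or 3.52-fold. These 3 genes, with the largest RA over TR, were also the 3 highest in TA with the deposited lengths.

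In the middle, CCT8 had a log2 ratio of 1.44 (SE 0.18, limma adjusted p = 0.000168) and CCT2 of 1.43 (SE 0.25, limma adjusted p = 0.0011), or 2.72-fold and 2.74-fold. Lower still were CCT6A at 0.79 (SE 0.19, limma adjusted p = 0.00705) and TCP1 at 0.78 (SE 0.23, limma adjusted p = 0.0157), or 1.73-fold and 1.75-fold. The call of TCP1 was lost without TR replicate 1 or TR replicate 2, at limma adjusted p = 0.0565 and 0.107. CCT5 was the subunit that did not pass, at a log2 ratio of 0.15 with a 95% interval of -0.33 to 0.62 (limma adjusted p = 0.551), a 1.12-fold ratio of means. Every RA library was above every TR library for 7 of 8 members, all but CCT5, and for 24.3% of tested genes.

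The median of all tested genes depends on how libraries are scaled, and with each library centred on its own median it moved from -0.58 to 0.09 for RA over TR and from -0.37 to 0.13 for TA over RA. On that scale all 8 members were higher in RA, including CCT5 at a log2 ratio of 0.82 (limma adjusted p = 0.00799). Of all tested genes, 5066 were then higher and 4814 lower, in place of 2743 and 6870. No member had a ratio below 0 on either scale.

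The size of the ratio differed between subunits. When each library was centred on the mean log2 level of the 8 members, a scale chosen after the values were seen, 5 members differed from that mean in RA over TR. CCT5 was below it, at -1.22 (SE 0.21, limma adjusted p = 0.000443), and TCP1 and CCT6A were at -0.58 each (limma adjusted p = 0.0296 and 0.0342). CCT3 and CCT7 were above it by 0.92 and 0.89 (limma adjusted p = 0.00419 and 0.00797). CCT2, CCT4 and CCT8 did not pass. On this scale 85.0% of tested genes differed in either direction. The members themselves set the scale, so this share includes the distance of other genes from CCT. It is no background for the count of 5 of 8. The mean includes each gene itself, and without TR replicate 2 only CCT3 and CCT5 passed.

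CCT5, lowest in RA over TR, had the largest untranslated share of its transcript, and CCT7, CCT8, CCT2 and CCT3, at 17.1% or less, had the larger ratios together with CCT4 at 31.8%. Over the 8 genes the untranslated share and the log2 ratio of RA to TR had a Pearson r of -0.786 and a Spearman rho of -0.571. Over the 13089 tested genes with a canonical transcript the values were 0.099 and 0.078. For TA over RA the 8 members gave -0.029 and -0.19. The length that reads were divided by cancels in these ratios, while the set of exons over which they were counted does not. The 8 points share 7 libraries, and nothing was tested.

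**Figure D3:**
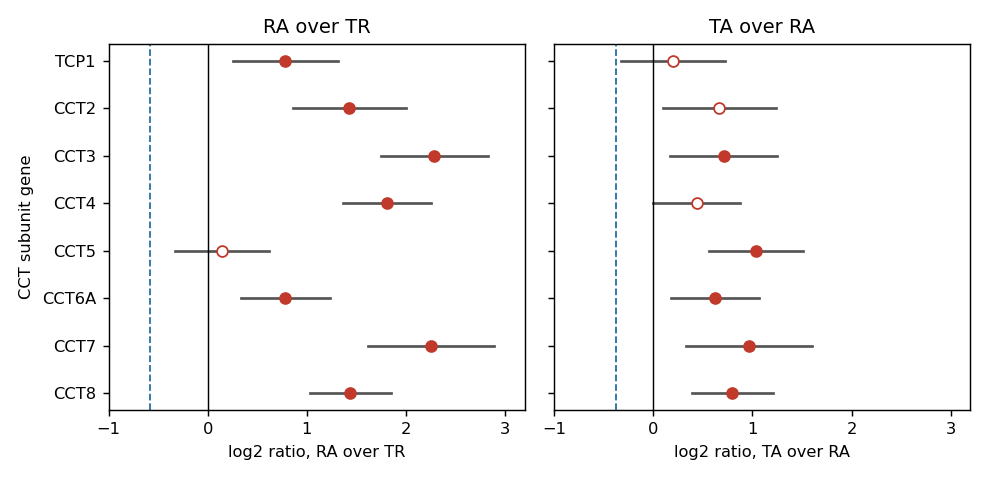
Fitted log2 ratio of RA over TR and of TA over RA for each CCT subunit gene with its 95% interval; filled points passed limma's test at an adjusted p of 0.05 and open points did not, and the dashed line is the median of all tested genes, at -0.58 and -0.37. Members run from 0.15 to 2.29 in RA over TR and from 0.20 to 1.03 in TA over RA.

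The comparison of TA with RA is the study's translation index, log2(TA/RA). All 8 subunits had a ratio above 0, 5 of them passed the test and none was lower, while 6.66% of tested genes were higher and 29.2% lower. The median of the members was 0.69 and that of all tested genes -0.37, again without matching by level. RA is the denominator here and the numerator in RA over TR, so a low RA moves these ratios in opposite directions. TA over RA was largest in CCT5, at 1.03 (SE 0.21, limma adjusted p = 0.00847), which is the subunit with the lowest RA over TR. It was 0.97 in CCT7 (SE 0.27, limma adjusted p = 0.0286), 0.80 in CCT8 (SE 0.18, limma adjusted p = 0.0124), 0.71 in CCT3 (SE 0.23, limma adjusted p = 0.0467) and 0.62 in CCT6A (SE 0.19, limma adjusted p = 0.0385). Ratios of means were 2.04-fold for CCT5, 1.93-fold for CCT7, 1.73-fold for CCT8, 1.63-fold for CCT3 and 1.54-fold for CCT6A.

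CCT2, at 0.67 (SE 0.25, limma adjusted p = 0.0667), and CCT4, at 0.44 (SE 0.19, limma adjusted p = 0.108), did not pass. TCP1 was lowest, at 0.20 with a 95% interval of -0.33 to 0.73 (limma adjusted p = 0.528). Even so, every TA library was above every RA library for 7 of 8 members, all but TCP1, against 14.4% of tested genes. The calls rested on few libraries. Without TA replicate 1 none of the 8 passed, without RA replicate 3 CCT5 alone, and without RA replicate 2 or TA replicate 2 only CCT5 and CCT8. Without TR replicate 1, which enters through the shared spread, 3 passed. With each library centred on its median all 8 passed, the lowest being TCP1 at 0.70 (limma adjusted p = 0.0474), and 2713 tested genes were higher and 1404 lower in place of 953 and 4173.

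The ratios of the subunits lay closer together in this step. None differed from the mean of the members in TA over RA in limma after adjustment, and none at an unadjusted p of 0.05. On the same scale 65.6% of tested genes differed after adjustment. That share again includes their distance from the members, which set the scale, and does not show the subunits to be alike. TCP1 was the farthest, at -0.48 with a 95% interval of -0.97 to 0.01 (limma unadjusted p = 0.0537), an interval that holds differences as large in size as those seen for CCT3 and CCT7 in RA over TR. Taken library by library, every ratio of a TA to an RA library of CCT5 (0.67 to 1.31 in log2), CCT7 (0.67 to 1.13) and CCT8 (0.65 to 0.93) was above every one of TCP1 (-0.20 to 0.56), so that tests that miss the threshold do not show the subunits to be equal. The SD of the ratio over the 8 members was 0.27, against 0.76 for RA over TR. Over all tested genes it was 0.72 and 2.05. The spread of the members was thus smaller than that of all genes in both steps.

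From TR to TA all 8 subunits were higher, with log2 ratios of 0.98 for TCP1 to 3.22 for CCT7 and limma adjusted p-values of at most 0.00714. In this comparison 17.0% of tested genes were higher and 57.5% lower, with a median of -1.08 against 2.17 for the members. Every TA library was above every TR library for all 8, and for 22.7% of tested genes. The fold of means ran from 1.98 for TCP1 to 9.08 for CCT7. The TR and TA comparison shares its libraries with the other comparisons and adds no separate evidence.

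**Figure D4:**
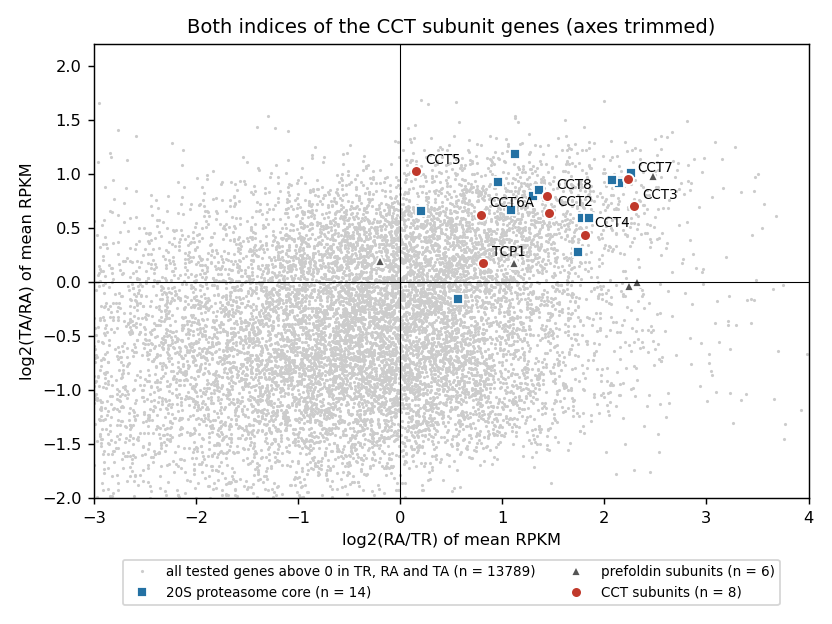
Log2(TA/RA) against log2(RA/TR) of mean RPKM for the 8 CCT subunits, the 14 genes of the 20S proteasome core, the 6 prefoldin subunits and 13789 tested genes above 0 in the 3 means, with axes trimmed to the centre, which holds 11536 of them. All 8 CCT points lie above 0 on both axes, CCT5 nearest to 0 on the horizontal axis and TCP1 on the vertical.

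Genes with sequences close to the members can take or give reads, and how the authors treated reads with several matches is not given in the sources used here. CCT6B, a paralog of CCT6A known for its expression in testis, had 9.99 ± 0.367 RPKM in TR (SD, n = 2), 0.746 ± 0.166 in RA (SD, n = 3) and 0.948 ± 0.111 in TA (SD, n = 2). It was lower in RA than in TR by limma, with a log2 ratio of -3.60 (adjusted p = 6.76e-06), opposite to CCT6A. Of 14 annotated pseudogenes named for a member, 2 were listed in the table. CCT6P1 had means of 21.0, 2.53 and 0.892 RPKM in TR, RA and TA, and CCT6P3 of 11.6, 1.23 and 0.395. All 3 copies thus had less in RA and TA than in TR, and the values of CCT6A are uncertain to the extent that reads were shared.

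Reads could not be told apart by strand. ACAT2, on the other strand, covers 9.3% of the 4883 exon bases that GENCODE lists for TCP1. It had means of 40.1, 53.0 and 96.3 RPKM in TR, RA and TA. The RPKM of TCP1 rests on 2453 bases, and the share of these under ACAT2 was not worked out. The snoRNAs SNORA20 and SNORA29 lie within TCP1. CCT4, CCT5 and CCT8 are overlapped by long noncoding RNAs on the other strand. The part of these in the values was not tested.

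By its 3 parameters CCT2 was the most typical subunit. Its distance from the mean of the 8 in log2 TR, RA and TA was 0.059, the smallest of all tested genes, although CCT2 itself entered the mean. CCT4 was at 0.36, CCT8 at 0.41 and CCT6A at 0.52, and CCT7, CCT5, TCP1 and CCT3 were between 1.03 and 1.12, with 153 to 186 as their ranks among tested genes. The 5 genes outside the complex nearest to the mean of the 8 were HERPUD1 at 0.098, WLS at 0.109, TUFM at 0.244, TOP1 at 0.249 and SLC7A5 at 0.251. These ranks rest on means of libraries that were in part far apart. HERPUD1 had 60.8, 257 and 262 RPKM in RA and moved to a distance of 0.621 and rank 43 without RA replicate 1. SLC7A5 had 92.2, 245 and 205 and moved to 0.48 without that library. With each of the 7 libraries left out in turn, WLS stayed between 0.08 and 0.294 and TUFM between 0.235 and 0.278, while TOP1 ran from 0.095 to 0.434. HERPUD1 is a protein of the endoplasmic reticulum, WLS carries Wnt ligands, TUFM is the mitochondrial elongation factor Tu, TOP1 is DNA topoisomerase I and SLC7A5 an amino acid transporter. Likeness here is over 3 means of 7 libraries and says nothing of shared function.

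The partners of CCT were counted in lists of genes with known roles. Of the 6 prefoldin genes, 5 were higher in RA than in TR by limma, from PFDN2 at 2.37 (adjusted p = 0.000704) down to PFDN4 at 1.03 (adjusted p = 0.0172), and PFDN6 did not pass at -0.22 (adjusted p = 0.372). In TA over RA none of the 6 passed by limma, and 1 did at an unadjusted p of 0.05. This was PFDN2, at 1.06 (adjusted p = 0.0593), and the lowest was PFDN5 at -0.01 (adjusted p = 0.981). The medians of the prefoldin genes were 1.67 and 0.19, beside 1.43 and 0.69 for the CCT genes.

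Of the phosducin-like and thioredoxin-like cochaperones, PDCL3 and PDCL were higher in RA than in TR by limma, at 1.06 (adjusted p = 0.000678) and 0.61 (adjusted p = 0.0316), and TXNDC9 was lower, at -0.93 (adjusted p = 0.0332). With each library centred on its median TXNDC9 did not pass, at -0.26 (adjusted p = 0.511). None of the 3 passed in TA over RA, where their values were between -0.52 and 0.23 with unadjusted p-values of at least 0.146. The chaperonin-like genes of the BBS group, which encode relatives of CCT subunits found at the base of the cilium, were called in 2 of 3 cases, both lower, beside 48.0% of all tested genes. BBS12 and BBS10 were lower in RA than in TR by limma, at -2.64 (adjusted p = 3.93e-05) and -1.72 (adjusted p = 0.000121), and MKKS stood at 0.28 (adjusted p = 0.357). MKKS was lower in TA than in RA, at -1.04 (adjusted p = 0.0176), a call that was lost with centred libraries (adjusted p = 0.162). The chaperonin of the mitochondrion is made of HSPD1, which passed in RA over TR at 1.28 (adjusted p = 0.00187), and its lid HSPE1, which did not, at 0.36 (adjusted p = 0.499).

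Actin and tubulin, the best known substrates of CCT, varied widely between libraries. Of 12 actin and tubulin genes tested out of 13, 2 were higher in RA than in TR by limma, ACTG1 at 2.0 (adjusted p = 0.0265) and ACTB at 1.69 (adjusted p = 0.0125), and none was lower, beside 19.2% and 48.0% of all tested genes. TUBA1A was lowest, at -0.71 (adjusted p = 0.214). None of the 12 passed by limma in TA over RA, and 2 did at an unadjusted p of 0.05, ACTB and TUBB2A. ACTB had the highest value at 1.18 (adjusted p = 0.084) and TUBB the lowest at 0.07 (adjusted p = 0.933). The replicates of ACTB were far apart, at 1545 ± 449 RPKM in RA (SD, n = 3) and 3527 ± 1361 in TA (SD, n = 2). TUBB4B had 511, 96.4 and 217 RPKM in RA, TUBA1B had 376, 74.0 and 171, and TUBB had 174 and 390 in TA. RA replicate 1 was the highest and RA replicate 2 the lowest in both TUBB4B and TUBA1B, and the part of this spread in the counts was not tested. Of 10 WD40 and cell cycle substrates, 4 were higher and 2 lower in RA than in TR, with GNB1, a G protein subunit, at 2.62 (adjusted p = 6.06e-06) and RPTOR, of the mTOR complex, at -1.49 (adjusted p = 0.000248), beside 19.2% higher and 48.0% lower among all tested genes. In TA over RA, 2 of these 10 were higher and 2 lower, beside 6.66% and 29.2%, with CDC20, an activator of the anaphase-promoting complex, at 0.84 (adjusted p = 0.0423) and VHL, a ubiquitin ligase subunit, at -1.43 (adjusted p = 0.00437). GNB1 was the other gene lower in TA than in RA, at -1.04 (adjusted p = 0.00561).

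By its medians the 20S proteasome core was nearest to CCT in both indices. In RA over TR 12 of its 14 genes were higher and none lower by limma, with a median of 1.55, from PSMA5 at 0.19 (adjusted p = 0.451) to PSMB1 at 2.25 (adjusted p = 3.67e-05). In TA over RA 10 of 14 were higher and none lower, with a median of 0.82, from PSMB2 at -0.11 (adjusted p = 0.811) to PSMB4 at 1.18 (adjusted p = 0.00723). The CCT counts, 7 of 8 and 5 of 8, are not shown to differ from these.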

How the data were processed

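The deposited table holds, per the authors' methods, RPKM values for each gene in 2 TR, 3 RA and 2 TA libraries of HCT116 cells. The authors called bases with CASAVA, mapped reads to hg19 with TopHat at default settings and counted reads over exons with HTSeq-count before dividing by exon length and library size. The libraries did not mark strand. The gene annotation and the counting mode are not given in the sources used here.

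Library sizes were recovered from the RPKM values, since every value above 0 is a whole number of reads: this held for 100% of genes within a relative tolerance of 1e-06. The length behind CCT6A could be known only up to a whole factor, which leaves its RPKM as deposited. R 4.3.3 and limma 3.58.1 (eBayes with a trend) were used to fit log2(RPKM + 0.1) for the 7 libraries jointly, over the 14305 genes whose mean reached 1 RPKM for TR, RA or TA, with Benjamini-Hochberg adjustment at 0.05. A fold on that scale slightly understates the change of low genes. The steps were tested on simulated data. Python 3.11.15, numpy 2.4.6, pandas 2.3.3 and matplotlib 3.10.9 served for all other values and the plots.

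Groups and replicate numbers are per the labels, which do not tie equal numbers to 1 culture, so p-values measure only the spread between these libraries. The members and the gene lists were chosen with earlier results of these data known. Every member is named; of other lists the highest and lowest gene in each index, every gene of lists of 3 or fewer, and the 5 genes nearest to the members' mean are named. PFDN4, TUBB2A, TUBB4B, TUBA1B, HSP90AA1, DNAJB1, CCT6P1, CCT6P3, ACAT2 and the call of GNB1 in TA over RA were added after their values were seen. Alternatives were other pseudocounts, filters and scalings, lengths, the replicate block and each library left out.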

Additional observations from a re-analysis of the deposited data

How the results depend on the processing

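The count of members higher in RA than in TR was between 6 and 8 under every alternative run, and TCP1 was the gene lost at 6. For TA over TR it was 8, or 7 without TR replicate 2, where TCP1 was lost. For TA over RA it moved from 5 to 8 with each library centred on its median and ranged from 0 to 6 when 1 library was left out, and it was 4 without a filter and 5 with pseudocounts of 0.01 and 1. Over all members and alternatives, 108 values kept their side of the threshold for RA over TR, 3 lost the call and 1 gained it. For TA over RA 84 kept it, 24 lost it and 4 gained it, and for TA over TR 111 kept it and 1 lost it. Centring turned the sign of TA over TR for MKKS to 0.41, for PFDN6 to 1.16 and for URI1 to 0.73. The members that differed from their own mean in RA over TR ranged from 2 to 6 with 1 library left out, and 0 differed in TA over RA in each of these fits.

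Equal replicate numbers did not deviate together, with correlations of 0.0848 between TR and RA, -0.505 between RA and TA and 0.00943 between TR and TA. RA replicate 3, the only library with its number, adds nothing to the ratios in the fit with the replicate block. With the replicate block 6 members were higher in RA than in TR, 0 in TA than in RA and 8 in TA than in TR, and 3 differed from the members' mean in RA over TR. Of all tested genes, 2083 were then higher and 5996 lower in RA than in TR, and 109 and 1387 in TA than in RA.

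The SD over the members was 0.54 in TR per coding length. In RA it was 0.42 per coding length, 0.58 without CCT6A, and 0.44 to 0.58 with 1 member left out. In TA it was 0.57 per coding length, 0.68 per canonical transcript length, 0.65 without CCT6A, and 0.49 to 0.65 with 1 member left out. The alternatives per length left out CCT6A. The cause of these changes was not tested. Centring on the members, the values without CCT6A, the order by length and the nearest genes without each library are alternatives chosen after seeing the data. No group had the 4 libraries that an outlier test needs.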

Other observations

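The R2TP complex and its prefoldin-like partners, which assemble other large complexes together with HSP90, were called in both directions in TA over RA but not in RA over TR. In RA over TR 5 of the 7 genes were higher and none lower by limma, from PIH1D1 at -0.47 (adjusted p = 0.0807) to UXT at 1.80 (adjusted p = 0.000295), beside 19.2% higher and 48.0% lower among all tested genes. In TA over RA 3 were higher and 2 lower, beside 6.66% and 29.2%. RUVBL1, an ATPase of the complex, was highest at 1.30 (adjusted p = 0.00513) and URI1 lowest at -1.28 (adjusted p = 0.00504), while PIH1D1 was at -0.84 (adjusted p = 0.02). No member of CCT was lower in either comparison.

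Of 10 genes for heat shock factors and cytosolic heat shock proteins, which fold proteins beside CCT, 2 were higher and 2 lower in RA than in TR by limma, and 3 higher and 2 lower in TA than in RA, beside the same shares of all tested genes. RA replicate 1 stood apart for some of them, with HSP90AA1 at 790 RPKM against 293 and 445, and DNAJB1 at 175 against 72.8 and 69.4. HSPH1, a nucleotide exchange factor of HSP70, was lowest in both, at -2.60 (adjusted p = 9.14e-06) and -1.17 (adjusted p = 0.00489). HSP90AB1, the constitutive cytosolic HSP90, was highest in RA over TR at 1.70 (adjusted p = 0.00415), and STIP1, which links HSP70 to HSP90, was highest in TA over RA at 0.98 (adjusted p = 0.0206).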
